A study of Gallus gallus with 26 samples.

Results

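Between embryonic day 15 (E15) and E17 a small group of genes in the complexus, the hatching muscle of the chick, lost at least 50% of its level and did not regain it on any of the later days measured. The group comprises 57 of the 8758 genes listed for broiler chicken (Gallus gallus) muscle. A gene belongs to it when its mean at E15 was at least 20 of the authors' normalised counts (counts divided by a size factor for each library) and at least 2-fold the highest mean of any later day, with 0.5 added to both means. The genes were thus chosen by the difference between E15 and the other days, and every value that compares E15 with a later day below is a description without a test. Frozen complexus muscle of broilers was sampled on 5 days, day was the only label that differed between groups, and the labels name no treatment other than the day. E15 and E17 had 6 libraries each, E19 and E20 had 5 each, and E21 had 4. Values after ± are SDs over these libraries of the day (n = 6, 6, 5, 5 and 4). The series description names MARS-Seq, a method that counts the 3' ends of transcripts, and calls the last pair of time points hatch and chick placement, whereas the sample labels give E20 and E21. The labels do not say whether libraries came from separate birds, nor their sex, so p-values reflect no more than the spread among the sampled libraries, which may be technical.

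As background, the complexus runs along the back of the neck, and the chick uses it to lift its head and break the shell. Muscle fibres of the chick form in successive waves in the egg, and by the last days of incubation most growth is by enlargement of fibres that have already formed, while isoforms of contractile proteins typical of the embryo are replaced. Muscle samples at this age also hold connective tissue, vessels, nerve and blood. In such bulk samples fewer cells of a type and less RNA per cell cannot be told apart.

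The deposited table gives versioned Ensembl identifiers without names, and none of them matched the RefSeq gene table used here. Roles, sequences and the markers of muscle or other cell types are therefore not given for these genes, and the tissue label could not be checked against markers. The genes are numbered 1 to 57 by falling E15 mean.

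The libraries held between 580768 and 2208872 counts. A count of 0 in 1 library allows between 1.16 and 6.64 normalised counts depending on the library, taking 3 counts as the limit, for counting error only. Of the 57 genes, 56 or 57 were counted in each E15 library, 48 to 50 in each E17 library and 41 to 48 in each library of the last 3 days. Together they took 1.58% ± 0.314 of all counts at E15, 0.567% ± 0.125 at E17 and 0.268% ± 0.0246 at E19. On the last days the share dropped to 0.222% ± 0.0661 (E20) and 0.117% ± 0.0125 (E21). A single gene, gene 1, accounted for 0.958% ± 0.208 of all counts at E15. Most of the drop after E19 lay in gene 1, whose share went from 0.192% ± 0.0237 on that day to 0.0512% ± 0.0114 on the last. Leaving gene 1 out, the group held 0.0764% ± 0.0092 (E19), 0.0736% ± 0.0124 (E20) and 0.0661% ± 0.0021 (E21) of all counts. With all 57 genes, the E15 libraries lay between 1.31% and 2.12%, above the highest E17 library at 0.77%.

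The genes were divided into sets by their ratio alone, with limits of 5 and 30. These limits were drawn after the values had been seen, and the sets are described without tests. In 8 genes the ratio of E15 to the highest later day was over 30, and they were all but absent after E15. In 3 genes, called uneven below, the ratio lay between 5.96 and 10.3, and the highest E15 library held 41.6% to 55.7% of the summed E15 level. Such a share was not confined to them, with 50.4% in gene 42 and 58.0% in gene 48, which belong to the other sets. The remaining 46 genes, called low-ratio genes, had ratios from 2.00 to 4.83. Their E15 means ranged from 20.2 to 9201 normalised counts, with a median of 58.3.

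**Figure D1:**
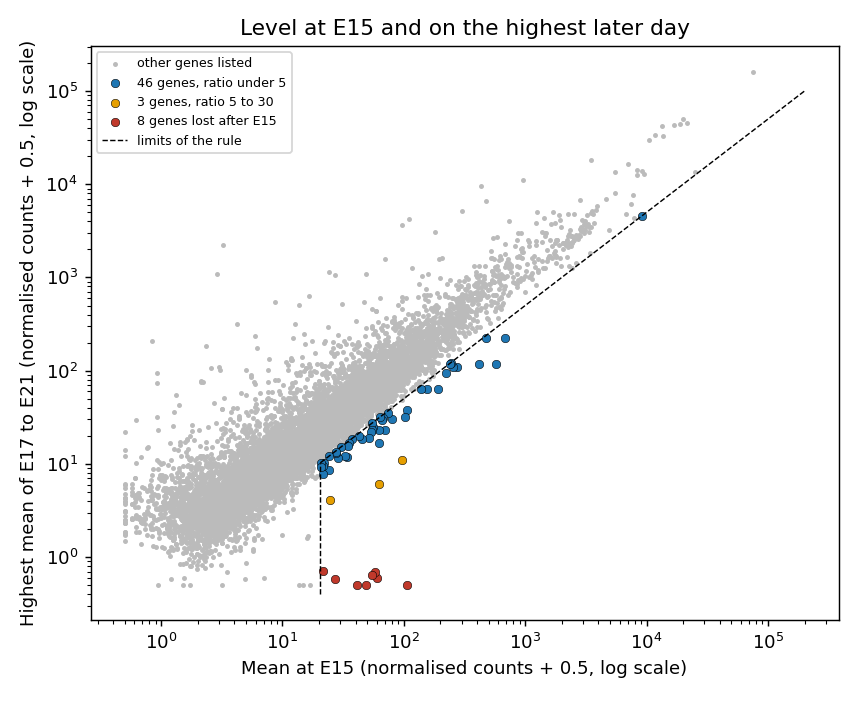
Mean at E15 (x axis) against the highest of the 4 later day means (y axis), both in normalised counts with 0.5 added on log scales, for every gene listed. Dashed lines are the limits of the rule, and the 8 genes lost after E15 lie apart at the bottom, below 1 on the y axis, while the 46 genes with a ratio under 5 lie close under the sloping line.

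At the limits the values ran on without a break. Just inside the ratio limit, gene 56 had 20.2 normalised counts at E15 and 9.84 on its highest later day, gene 50 had 23.7 and 11.6, and gene 30 had 54.5 and 26.8. The nearest genes outside it had ratios of 1.992, 1.990 and 1.990, the first with 96.4 at E15 and 48.1 later. Just outside the limit on the level, the next genes had E15 means of 19.9, 18.9 and 17.9, against 20.2 in genes 57 and 56 and 21.0 in gene 55 inside it. In all, 204 genes listed met the ratio at any level, and 147 of these had an E15 mean under 20.

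In 41 of the 57 genes all 6 E15 libraries lay above all 20 later libraries. The same held for 1.64% of all genes listed and for 3.52% of those with an E15 mean of at least 20, and since the rule chose on this difference nothing is read from it. The rule also largely fixed how the group would be called from E15 to E17, so its calls at that step are not counted. Over all genes tested, 8.66% were lower at E17 than at E15 and 9.08% higher (edgeR, adjusted p under 0.05). The authors' deposited table gave an adjusted p of at most 0.05 and a log2 fold change of at most -1 at this step for 1.83% of all genes.

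**Figure D2:**
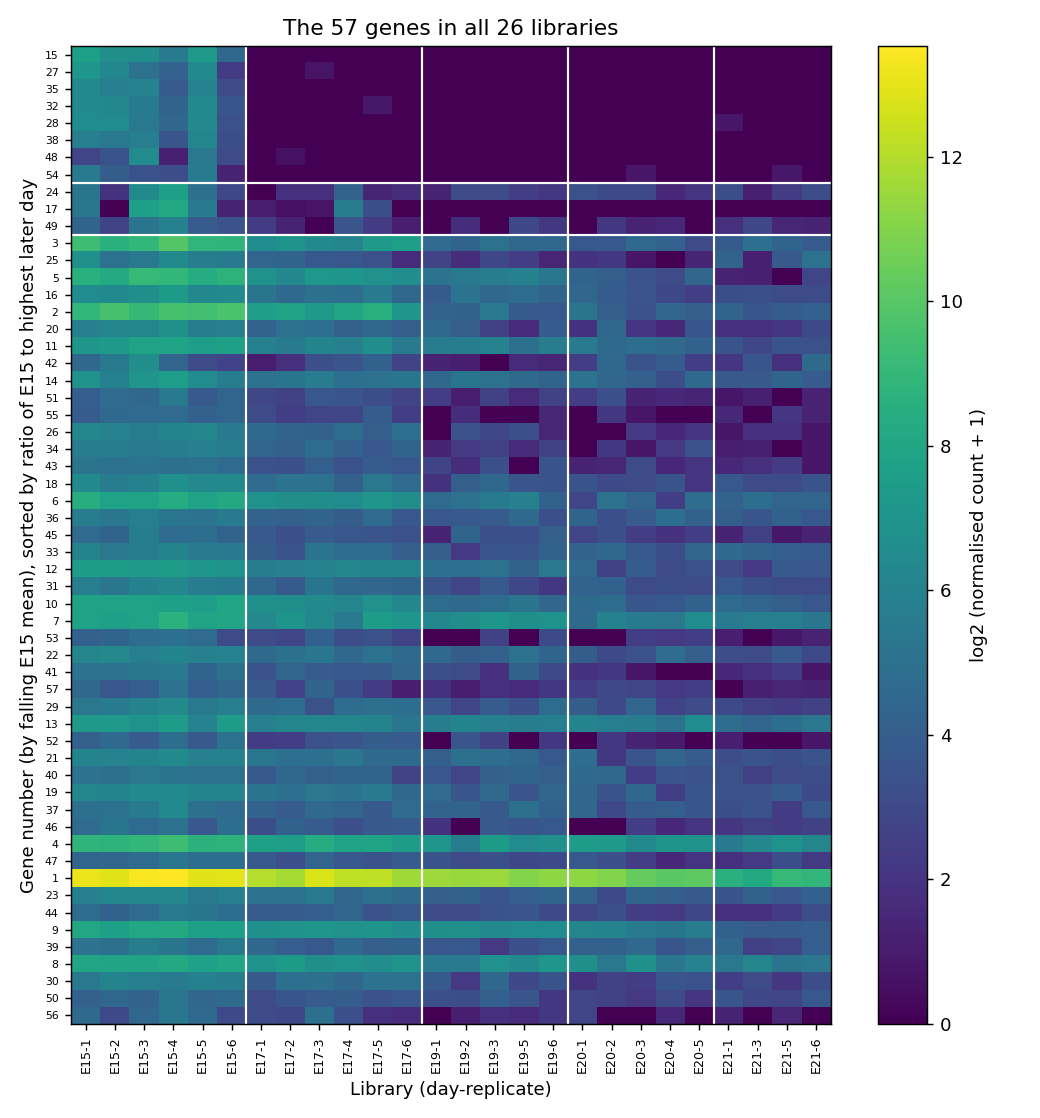
Level of each of the 57 genes (rows, numbered by falling E15 mean and sorted by the ratio of E15 to the highest later day) in each of the 26 libraries (columns, day and replicate), as log2 of the normalised count plus 1. White lines part the days and the 3 sets; the top 8 rows are dark in nearly all 20 later libraries, and gene 1 is the bright row near the bottom.

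The 8 genes lost after E15 are genes 15, 27, 28, 32, 35, 38, 48 and 54. They held 3059 counts in the 6 E15 libraries and 7 in the 20 libraries of the later days. Only 6 of the 160 pairs of gene and later library had any count. Their E15 means lay between 21.0 and 105 normalised counts, with a median of 50.9.

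Gene 15 (ENSGALG00000042685.1) was the most abundant of them. Its normalised counts at E15 were 199, 101, 105, 48.2, 157 and 22.6 in replicates 1 to 6, a mean of 105 ± 65.6. It had no count in any of the 20 later libraries. Set against 3 counts over all later libraries together, its level from pooled counts was at least 667-fold higher at E15. The same bound was 317-fold for gene 35 and 274-fold for gene 38, which also had no later count.

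The other 5 lost genes had 1 or 2 later counts each. For gene 28 the ratio of E15 to later levels, from 401 and 2 counts, was 517 (exact Poisson interval at 95%, 142 to 4284). For gene 54, from 137 and 2 counts, it was 177, with an interval from 47.97 to 1473. For gene 48, from 282 counts and 1 count, it was 727, with an interval from 129 to 28822. For genes 27 and 32 the lower ends of the intervals were 179 and 178. These bounds and intervals cover counting error only and leave out the spread between E15 libraries. Of the 282 E15 counts of gene 48, for example, 211 came from replicate 3. The genes were chosen by this same difference, so the bounds and intervals describe it and do not test it.

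The E15 libraries did not hold the lost genes evenly. Summed over the 8 genes, replicates 1 to 6 had 709, 474, 446, 141, 628 and 72.8 normalised counts. Replicates 4 and 6 were thus low, yet even replicate 6 had 103 counts of these genes, against 7 in all later libraries together. The 3 shallowest E15 libraries, replicates 1, 2 and 5 with 803168, 991119 and 1031195 counts, were the 3 highest in these genes. Replicates 3, 4 and 6 held 2208872, 1445806 and 1355468 counts and were the 3 lowest. The part of depth in this order was not tested.

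The lowest libraries were the same in 7 of the 8 genes, while the order of the higher ones differed. In each of genes 15, 27, 28, 32, 35, 38 and 54, replicate 6 was lowest and replicate 4 next lowest, and the highest was replicate 1 in 5 genes and replicate 5 in 2. How often replicates 4 and 6 were the lowest over all genes was not counted. The range between libraries was wide. In gene 27 the replicates 1 to 6 had 138, 78.2, 31.9, 17.8, 84.7 and 4.24 normalised counts, a 32.6-fold range, and in gene 32 the range was 7.40-fold. Gene 15 made up between 21.2% and 34.2% of the summed counts of the set in the 6 libraries, and gene 32 between 10.3% and 16.7%. Gene 48 went its own way, with 92.3 normalised counts in replicate 3, 41.9 in replicate 5 and between 1.27 and 9.78 in the other 4. It made up 20.7% of the set in replicate 3 and 0.856% in replicate 4. Its E15 mean without replicate 3 was 13.4, under the limit of 20.

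**Figure D3:**
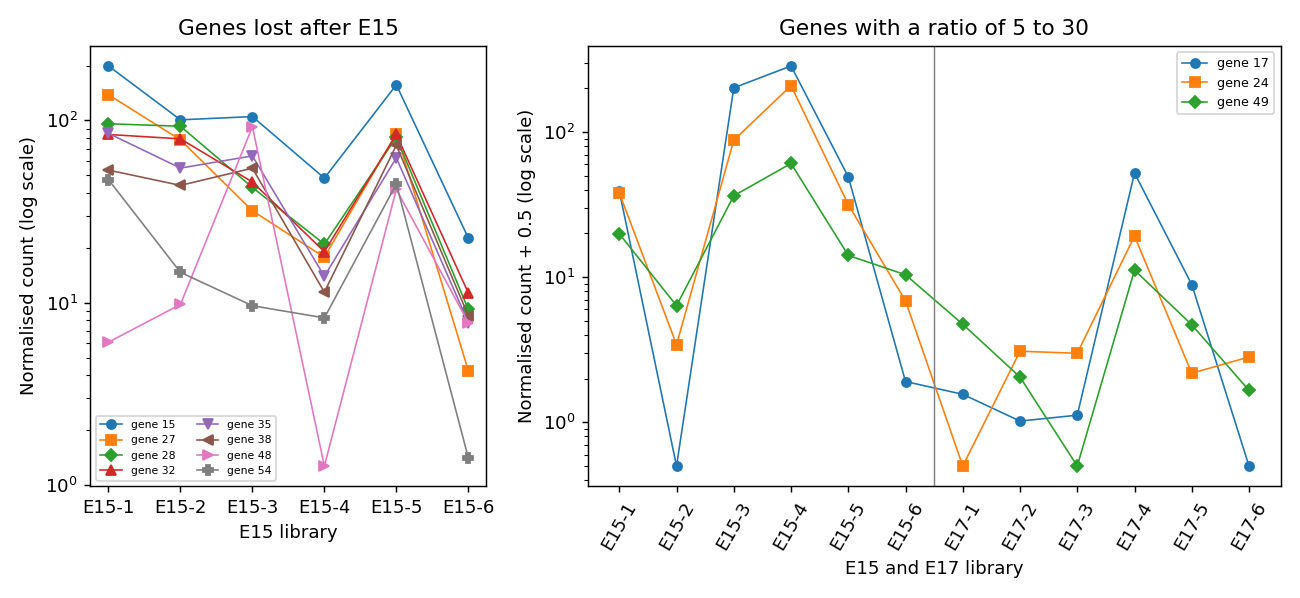
Left, normalised counts on a log scale of the 8 genes lost after E15 in each of the 6 E15 libraries; 7 of the 8 lines are lowest in replicate 6 and next lowest in replicate 4. Right, normalised counts plus 0.5 on a log scale of genes 17, 24 and 49 in the E15 and E17 libraries, with the highest value of each day in replicate 4 for all 3 genes; lines join libraries for legibility only, since replicates have no order.

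Genes that were present on a single day were found for E15 alone among the 5 days. With at most 2 counts in the libraries of all other days, and a count in all or all but 1 of the day's own libraries, 15 genes were counted at E15 and 0 at E17, E19, E20 or E21. These were counts of detection with no test. The 15 comprised the 8 lost genes and 7 others with E15 means between 2.69 and 16.4 normalised counts, under the limit on the level. In 6 of the 7, replicates 4 and 6 were the lowest pair of E15 libraries, in some of them by few counts. In the gene with a mean of 2.69, replicate 4 had 1.90 normalised counts, beside 1.96 in replicate 2 and 1.95 in replicate 5. The 7 genes held 454 counts at E15 and 3 afterwards.

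The uneven genes are genes 17, 24 and 49. Gene 17 had 38.8, 0, 201, 285, 48.7 and 1.41 normalised counts in the E15 replicates 1 to 6, a mean of 95.8 ± 119. At E17 it had 51.7 in replicate 4, 8.40 in replicate 5 and at most 1.06 in the other 4 libraries, and no count from E19 on. Gene 24 had 37.6, 2.93, 87.5, 208, 31.2 and 6.36 normalised counts in the E15 libraries. Its level was low but not lost afterwards, with 4.63 ± 6.96 at E17 and 5.44 ± 3.35 at E21. Gene 49 had between 5.87 and 60.3 normalised counts at E15, and 3.64 ± 3.85 at E17.

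All 3 genes were highest in replicate 4 and lowest in replicate 2 at E15, and highest in replicate 4 at E17. A replicate 4 was listed at E20 but not at E19 or E21. At E20 it was the lowest library in gene 24, with 1.88 normalised counts against 9.07 in replicate 1. In gene 49 it had 1.88 and was not the highest, with 3.51 in replicate 2. Gene 17 had no count there, and these E20 values rest on few counts. The E15 order differs from that of the lost genes, for which replicate 4 was among the low libraries. In none of the 3 did all E15 libraries lie above all later ones. Without replicate 4, the E15 mean of gene 17 was 58.0 instead of 95.8, that of gene 24 was 33.1 instead of 62.3, and that of gene 49 was 16.9 instead of 24.2, which is under the limit on the level.

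The E15 libraries spread more widely in the lost and uneven genes than in most low-ratio genes. The coefficient of variation (CV, the SD as a percent of the mean) over the 6 E15 libraries, on a scale of CPM (counts scaled to a common library total, with TMM factors), had a median of 64.6% in the lost genes and 23.4% in the low-ratio genes. In genes 17, 24 and 49 it was 124.03%, 125% and 85.5%. Over all 3575 genes with an E15 mean of at least 20 the median was 16.4%. These genes were not matched to the group on level, and the part of level in the difference was not tested. Among genes with an E15 mean of at least 50, the largest CVs of the group belonged to genes 24, 17, 27, 28 and 15, from 125% down to 61.8%. The smallest belonged to genes 34, 8, 10, 22 and 12, from 8.99% to 13.98%. Of the low-ratio genes, gene 42 stood highest with 108%, with 101 normalised counts in E15 replicate 3, 50.4% of its summed E15 level, and between 5.65 and 44 in the other 5. These values are a description, because a high E15 mean carried by a few libraries was also enough for the rule.

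**Figure D4:**
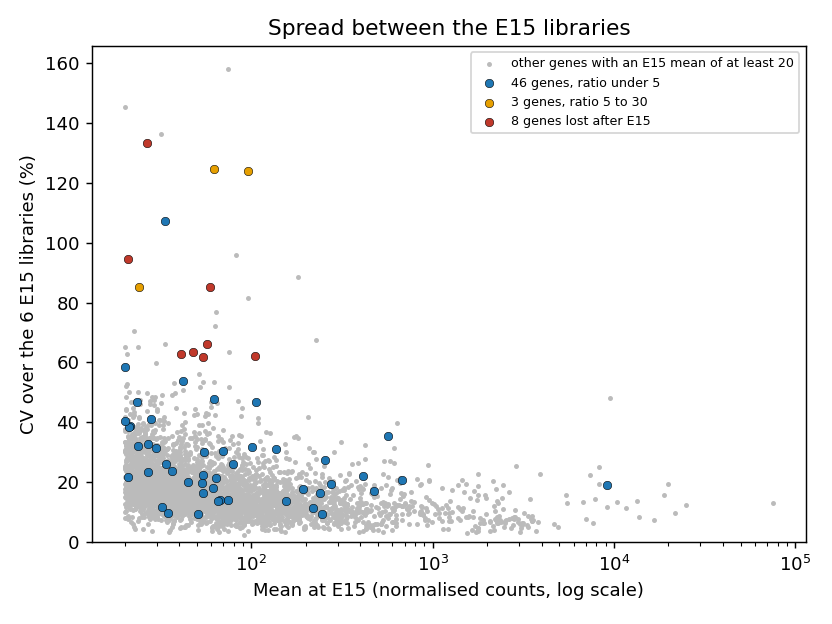
CV over the 6 E15 libraries in percent (y axis) against the E15 mean in normalised counts on a log scale (x axis), computed from the authors' normalised counts. Genes lost after E15 and the uneven genes lie above 60%, and most of the low-ratio genes lie within the grey cloud of other genes with an E15 mean of at least 20.

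The low-ratio genes are the largest set, and their courses after E17 differed. Gene 1 (ENSGALG00000009641.6) was by far the most abundant of the 57. Its normalised counts at E15 were 9044, 7797, 10863, 11842, 7684 and 7977 in replicates 1 to 6. Its mean went from 9201 ± 1762 at E15 to 4507 ± 1369 at E17 and 2637 ± 369 at E19. At E20 it was 1586 ± 586, and by E21 it had come down to 425 ± 104. The lowest E15 library lay above the highest E17 library at 6859, and from E19 on no library exceeded 2978. Without E15 replicate 4 its ratio was 1.92, under the limit of 2.

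Gene 2 had 501, 764, 517, 765, 700 and 840 normalised counts in the E15 libraries. It stood at 221 ± 84.9 at E17 and at 20.6 ± 12.3 at E19, and its means on the last days were 19.6 and 15.7. Gene 3 had 388 to 946 at E15, 118 ± 43.97 at E17 and 24.4 ± 4.62 at E19. Gene 3 had the largest ratio of the low-ratio genes, 4.83. For genes 2 and 3 no step after E19 passed the test given below, whereas gene 1 was called lower at every later step.

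Gene 5 went on falling to the end. Its E15 libraries had 387, 307, 541, 492, 329 and 423 normalised counts, and its mean was then 116 ± 25.5 at E17 and 45.7 ± 10.3 at E19. It was 14.7 ± 5.84 at E20, and by E21 only 2.24 ± 2.703 remained. Its ratio of E15 to E21 was 151, the largest of the low-ratio genes, whose median ratio was 8.82.

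In the set as a whole, 25 of the 46 low-ratio genes had falling means at every step from E15 to E21, and 34 had their lowest mean at E21. E17 was the highest later day in 42 of the 46. The rule itself fixed the fall from E15 to E17. How many of all genes followed such courses was not counted, so nothing particular to the set is read from these counts. On the log2 scale, with 0.5 added to the means, the median differences were -1.21 from E15 to E17, -0.87 from E17 to E19, -0.51 from E19 to E20 and -0.45 from E20 to E21. By E17 the low-ratio genes had covered a median of 40.3% of their log2 fall from E15 to E21, with a range from 23.2% to 125%; a value over 100% belongs to a gene whose mean was higher at E21 than at E17.

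**Figure D5:**
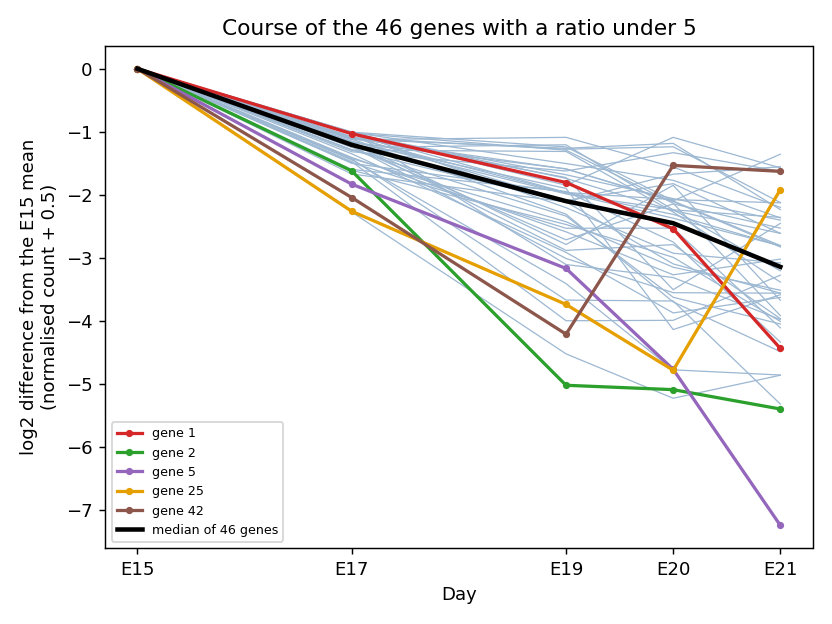
Log2 difference of each day mean from the E15 mean (y axis, normalised counts with 0.5 added) by day (x axis) for the 46 low-ratio genes, each a thin line, with 5 genes and the median in colour and black. The median at E21 is -3.14, gene 5 is at -7.24, and genes 25 and 42 turn upwards after E20 and E19.

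The rule sets no order among the later days, but it keeps each later mean at or under about 50% of the E15 mean. In the 46 low-ratio genes the median ratio of E15 to the highest later day was 2.29. E17 was that day in 42 of them, so many stood near this limit at E17 and had little room to rise. Falls and rises after E17 were thus not equally open to the group. The shares of all genes beside its counts are given as a description only. In edgeR's quasi-likelihood fit, a joint F test over E17, E19, E20 and E21 found that 41 of the 57 genes changed (adjusted p under 0.05 with Benjamini-Hochberg adjustment over 5901 genes), beside 60.1% of all genes tested. All 41 were low-ratio genes. The lost genes held 7 counts in all later libraries, too few for any call, and nothing is read from their tests. Gene 48 did not pass the filter on low counts, and only 39 of the 57 genes, all of them low-ratio genes, pass it without the E15 libraries. The other 17 genes tested entered through E15, the day they were chosen to be high on, and 7 of the 41 calls were theirs. In a fit that used no E15 library, 35 of the 39 genes changed, beside 59.6% of its genes.

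From E17 to E21, of the 57 genes, 40 fell and none rose (edgeR, adjusted p under 0.05), beside 25.2% of all genes lower and 25.5% higher. Because the rule limited the E21 mean, nothing is read from the absence of rises. A fit without E15 libraries does not remove this limit, since the genes were still chosen by the rule. At an unadjusted p under 0.05 none was higher either, and DESeq2 called 41 lower and none higher. In the fit without E15 libraries, 33 of the 39 genes it tested fell, beside 24.2% of its 5565 genes. The 40 were all low-ratio genes, and 7 of them entered through E15 alone. In the fit without E15 libraries 16 of the 39 genes were at least 4-fold lower, beside 3.88% of its genes.

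The largest of these falls were in genes 5, 34 and 26. Gene 5 stood at -5.60 on the log2 scale (SE 0.37, adjusted p = 6.84e-14 in edgeR). Gene 34 had 43.3 to 58.4 normalised counts at E15, the most even values of the group, then 18.6 ± 4.98 at E17 and 0.795 ± 0.570 at E21. On the log2 scale it fell by 4.27 (SE 0.46, adjusted p = 4.15e-09 in edgeR). Gene 26 went from 22.4 ± 5.86 at E17 to 1.65 ± 1.01 at E21, at -3.84 on the log2 scale (SE 0.46, adjusted p = 2.52e-08 in edgeR). At E21 genes 34 and 26 were near the level that a few counts give.

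At E19 against E17, 19 genes fell and none rose (edgeR, adjusted p under 0.05), beside 7.35% of all genes lower and 9.88% higher. The rule limited the E19 mean as well, and nothing is read from the absence of rises. At an unadjusted p under 0.05 there were 31 lower and none higher, and DESeq2 called 20 lower and none higher. With library totals as the scale 33 fell. In the fit without E15 libraries 15 of the 39 genes fell, beside 6.11% of its genes, and the other 4 of the 19, genes 53, 55, 56 and 57, were not tested there. Gene 2 fell most, by 3.37 on the log2 scale (SE 0.30, adjusted p = 2.05e-09 in edgeR), and no E19 library overlapped with the E17 range of 140 to 374 normalised counts. Gene 55 fell by 2.84 (SE 0.68, adjusted p = 0.00339 in edgeR), from 7.24 ± 3.61 normalised counts to 0.848 ± 1.19, so that the E19 level was that of single counts. Genes 55 and 56 passed the filter on low counts only through E15. Gene 56 fell by 2.46 (SE 0.85, adjusted p = 0.0428 in edgeR), and 1 E17 library with 31.1 normalised counts stood far above the others at 2.32 to 8.91. The call of gene 56 was lost without that library, E17 replicate 3 (adjusted p = 0.19), and with any 1 of the E19 libraries left out. Gene 10 fell by 1.82 (SE 0.20, adjusted p = 9.94e-08 in edgeR), from 93.6 ± 18.7 to 26.96 ± 5.23 normalised counts. Gene 6 fell by 1.60 (SE 0.26, adjusted p = 5.34e-05 in edgeR) over the same step.

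From E19 to E20, around hatching, 9 genes fell and none rose (edgeR, adjusted p under 0.05). The 9 were 16.1% of the genes of the group that were tested. Over all genes 13.6% fell and 13.9% rose. The shares that fell lie close together, and nothing about the group is read from this step. In the fit without E15 libraries 9 of the 39 genes fell and 1 rose, beside 14.3% of its genes lower and 13.6% higher. At an unadjusted p under 0.05, 15 were lower and 2 higher, and DESeq2 called 10 lower and 1 higher. With library totals as the scale 4 fell and 2 rose. Gene 41 fell by 2.62 on the log2 scale (SE 0.64, adjusted p = 0.00245 in edgeR), from 8.73 ± 5.55 to 1.46 ± 1.69 normalised counts. Gene 5 fell by 1.70 (SE 0.32, adjusted p = 0.000123 in edgeR) and gene 12 by 1.30 (SE 0.29, adjusted p = 0.000835 in edgeR). Gene 7, with 107 ± 45.02 normalised counts at E17 and 110 ± 22.5 at E19, fell by 1.05 at E20 (SE 0.29, adjusted p = 0.00675 in edgeR), but not with library totals as the scale (adjusted p = 0.0659).

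From E20 to E21, 7 genes fell and 1 rose (edgeR, adjusted p under 0.05), beside 8.59% of all genes lower and 5.74% higher. Without the E15 libraries 5 of the 39 genes fell and 1 rose, beside 8.1% of the genes of that fit lower and 5% higher, and 5 fell without E21 replicate 1. The counts at this step are small, and nothing about the group is read from them. Gene 5 fell by 2.54 on the log2 scale (SE 0.49, adjusted p = 0.000516 in edgeR), and gene 1 fell by 1.89 (SE 0.23, adjusted p = 4.87e-07 in edgeR). Gene 57 fell by 2.40 (SE 0.75, adjusted p = 0.0292 in edgeR), a call that was lost without E20 replicate 2 or 3 or E21 replicate 1, with an adjusted p up to 0.162, and gene 57 passed the filter on low counts only through E15. Gene 9 fell by 1.73 (SE 0.20, adjusted p = 1.1e-07 in edgeR) from 54.4 ± 13.2 to 15.5 ± 1.67 normalised counts, and gene 4 fell by 0.79 (SE 0.27, adjusted p = 0.0425 in edgeR). The call of gene 4 was lost under 10 alternatives, 6 of which left out 1 library of E20 or E21, with an adjusted p up to 0.199. Genes 1 and 5 were alone among the 57 in being called lower at each of the 3 later steps, although the means of other genes also fell at each of them.

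Gene 25 (ENSGALG00000031211.1) was the only one called higher at a later step in edgeR with all libraries and TMM factors; under other settings genes 42 and 39 were called higher from E19 to E20. Its E15 libraries had 109, 32.3, 43.7, 86.9, 52.6 and 47.4 normalised counts, and its mean then went from 12.6 ± 6.70 at E17 to 1.78 ± 1.48 at E20. At E21 it stood at 16.1 ± 12.6, which is 3.49 above E20 on the log2 scale (SE 0.72, adjusted p = 0.00101 in edgeR). Its 4 libraries at E21 had 18.6, 1.25, 12.8 and 31.6, so that 1 of them overlapped with E20 and 3 lay above it, and all lay below the lowest E15 library.

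Between E17 and E21 the difference did not pass the test in 6 low-ratio genes, genes 25, 33, 36, 39, 42 and 50, which does not show that their levels held. Genes 25 and 50 changed in the joint test of the later days (adjusted p = 0.0003 and 0.0434 in edgeR). Gene 36 had 44.96 ± 9.11 normalised counts at E15 and 17.8 ± 4.84 at E17, and its later means lay between 14.2 and 17.6. Its log2 fold change from E17 to E21 was -0.28 (SE 0.26, adjusted p = 0.39 in edgeR). Gene 33 had 53.6 ± 10.6 at E15, 21.7 ± 9.59 at E17 and 17.9 ± 4.35 at E21, at -0.22 against E17 on the log2 scale (SE 0.30, adjusted p = 0.556 in edgeR). With library totals as the scale the log2 fold changes of genes 36 and 33 were above 0. Gene 42 had 1.34 ± 0.832 at E19 and 11.2 ± 7.60 at E20, which did not pass the test (adjusted p = 0.0568 in edgeR) but did without the E15 libraries (adjusted p = 0.0142) and in DESeq2 (adjusted p = 0.017). Gene 8 had 244 ± 23.4 at E15 and 121 ± 24.6 at E17, and its log2 fold change from E17 to E21 was -1.39 (SE 0.28, adjusted p = 9.49e-05 in edgeR), although no single step after E17 passed the test.

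The clusters in the authors' deposited table divided the group in part along the same lines. They were built from the same libraries and are no independent support. Of the clusters attributed to DESeq2, cluster 1 held 41 low-ratio genes, cluster 3 held the other 5 low-ratio genes, all 8 lost genes and 2 of the 3 uneven genes, and gene 17 was in none. The group made up 41 of the 201 genes of cluster 1 and 15 of the 87 genes of cluster 3. Of the clusters attributed to maSigPro, cluster 1 held 33 low-ratio genes among its 116 genes, and no lost or uneven gene was in any cluster. Of all 8758 genes listed, 8414 were in no maSigPro cluster, so nothing is read from that absence. For gene 15 the authors' deposited table gives a log2 fold change of -9.45 from E15 to E17.

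Who belongs to the group depended on single libraries near the limits. With each of the 26 libraries left out in turn, 33 of the 57 genes always met the rule. Leaving out E15 replicate 4 dropped 15 genes, among them genes 1, 4, 8 and 9 of the 10 most abundant, and 44 genes then met the rule. That library was the highest of the 6 in 25 of the 46 low-ratio genes and the lowest in none, and its median level in them was 0.33 above the day mean on the log2 scale. E15 replicate 5 was the lowest in 16 of them. At E17, replicate 3 was the highest in 17 low-ratio genes and replicate 6 the lowest in 17. How often these libraries were highest or lowest over all genes was not counted. The rule also favours genes raised by a high E15 library, so nothing is read from these orders.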

How the data were processed

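The authors deposited raw counts per gene for 26 libraries, per the file headers, and a normalised signal, the count divided by 1 size factor per library. STAR 2.7.10a, HTSeq 2.0.2 and DESeq2 are named, per the submitters' processing notes; the build, the annotation, molecular identifiers and strand were not given in the sources used here, so near-identical, overlapping or antisense genes cannot be told apart. The deposited table also holds log2 fold changes, adjusted p-values and cluster numbers (a score without unit) by the authors. Levels here are the deposited normalised counts. Tests used edgeR 4.0.16 (R 4.3.3) on the counts: TMM factors, filterByExpr by day (minimum count 10, minimum total 15), 5901 genes, all 26 libraries in 1 quasi-likelihood fit with day as the only term, Benjamini-Hochberg adjustment. The SE is the absolute log2 fold change over the square root of F. The edgeR step was also run on simulated counts with a common dispersion and changes at E21 only. That setting does not cover genes with uneven libraries or with late levels of single counts. DESeq2 1.42.0 was an alternative. Named genes were the 10 highest at E15, the 10 with the largest ratio and the genes at the limits. The 5 with the largest and the 5 with the smallest E15 CV from a mean of 50 up were also named. So were the 3 largest later rises and falls per comparison. Genes 16, 33, 36, 39, 42, 45, 49 and 53 were named after their values were seen. Lists of marker and pathway genes needed names and were not used. Members, rule and sets were chosen with earlier results of these data known.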

Additional observations from a re-analysis of the deposited data

Results flagged for a closer look

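The check covered 34 groups of values: the E15 libraries of 29 of the named genes, and the summed share of the 57 genes on each day. In 1 group a library lay far from the others, and chance flags about 1 group in 20. The remaining genes of the group, some of them named above, were not in the check, but such libraries occur among them. Gene 45, for example, had 50.3 normalised counts in E15 replicate 3, while the next library had 28.2 and the lowest 19.1. Gene 16 had 164 in E15 replicate 4, while the next library had 106 and the lowest 77.9. Gene 7 had 392.2 normalised counts in E15 replicate 4, while the nearest of the other 5 libraries had 247, a gap of 0.744 of the whole range against a critical value of 0.625. Without that library its E15 mean was 227 ± 19.9 (SD, n = 5) and its ratio to the highest later day 2.06, still inside the rule.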

How the results depend on the processing

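The number of genes in the group moved with the rule's own limits: 89 with an E15 mean of 10, 34 with 50, 214 with a ratio of 1.5, 18 with 3 and 12 with 4. On a scale of library totals 139 genes met it, including all 57; that scale shifts the median log2 difference over the genes tested by -0.24 from E15 to E17, -0.25 to E19, 0.34 to E20 and 0.37 to E21. With TMM factors 63 met it, with day medians 60, of which 44 were shared, and with 1 library left out 44 to 65. The set of lost genes, an alternative chosen after seeing the data, then numbered 7 to 9. With library totals, 33 genes fell from E17 to E19, 4 fell and 2 rose from E19 to E20, and 2 rose from E20 to E21. On that scale genes 36 and 33, not called, stood at 0.18 and 0.25 (log2) at E21 against E17. From E19 to E20, 1 gene, gene 42, rose in DESeq2, 1 without the E15 libraries and 0 to 1 with single libraries left out. With 1 library left out, 39 to 41 genes were lower from E17 to E21 and 39 to 42 changed after E17. Without the E15 libraries these counts were 33 and 35, but only 39 genes of the group were tested there, against 56 with all libraries. The counts of genes lower from E17 to E21 and of genes changed after E17 stayed within 1.5 times of those reported. That limit takes no account of how many genes were tested. Other counts above moved further, among them 33 genes lower from E17 to E19 with library totals, against 19 reported. Same-numbered libraries of different days shared no deviation over the genes tested (median correlation -0.002 over 45 pairs, none over 0.1). That gave no sign that the numbers pair libraries, but it cannot exclude shared handling. With the replicate block 41 genes fell from E17 to E21 and 19 from E17 to E19. The calls of genes 4 and 57 from E20 to E21 were then lost. The cause was not tested for any of these. Depth limits the lost genes and late levels under 6.64 normalised counts.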
